A study of Mus musculus with 3 samples.

Results

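Collagens are the main structural proteins of the extracellular matrix, and small leucine-rich proteoglycans are secreted proteins that bind collagen fibrils. The genes of both, with the matrix glycoprotein gene Sparc and the genes of enzymes that hydroxylate, fold and cross-link collagen, were followed here in CT26.WT, a mouse colon carcinoma cell line. Members were all probe sets whose single gene symbol had the collagen form Col, a number, a and a number, together with 16 genes taken by name. This gave 117 probe sets of 57 genes (42 of them collagens) out of 45101 probe sets and 18193 named genes. Of the 16 named genes 15 had such a probe set. Loxl2 shared both of its probe sets with another gene symbol and is not reported.

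Total RNA from 1 culture of each group was measured on 1 Affymetrix Mouse Genome 430 2.0 array, 3 arrays in all. Cells of the S100a8 group were kept 12 h without serum and then received 4 µg/ml of S100a8 mouse recombinant protein for 24 h, and those of the S100a9 group received S100a9 mouse recombinant protein in the same way. Control cells had the same serum-free medium, and the labels name their additive as BSA in one place and as normal saline in another, with no time of their own for it. All cultures were of the same line, bought from a cell bank, and no genetic change was made. The comparisons asked how either protein, released by myeloid cells in inflammation, altered matrix gene transcripts of the tumour cells. With 1 array a group there was no test, and every difference below is one between single arrays, in which the effect of a protein, the variation between cultures and the noise of an array cannot be told apart.

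Collagen chains are made in the endoplasmic reticulum, where prolyl and lysyl hydroxylases modify them and the chaperone encoded by Serpinh1 holds the triple helix in shape. Fibrillar collagens are secreted, trimmed and assembled into fibrils, which lysyl oxidases cross-link, while type IV collagens form the network of basement membranes and type VI collagens form beaded filaments around cells. Decorin, osteoglycin and their relatives bind the fibrils and influence their diameter. In colon tumours most fibrillar collagen is laid down by stromal fibroblasts.

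The regions before the start sites of 4 genes are shown because these members had the differences from control described next, lower in Ogn, Col5a1 and Col6a1 and higher in Sparc. The sequences are from RefSeq, assembly GRCm38.p6, and give the 250 bases upstream of the annotated start, 5′ to 3′ on the strand of the gene. Capitals mark any match, on either strand, to 4 motifs: the TATA box, TATAAA; the CCAAT box, spelled by its name; the GC box, GGGCGG; and the AP-1 site, TGANTCA. The Ogn region is chr13:49607765-49608014 on the plus strand, that of Col5a1 is chr2:27886175-27886424 on the plus strand, that of Col6a1 is chr10:76726045-76726294 on the minus strand and that of Sparc is chr11:55420081-55420330 on the minus strand.
Ogn: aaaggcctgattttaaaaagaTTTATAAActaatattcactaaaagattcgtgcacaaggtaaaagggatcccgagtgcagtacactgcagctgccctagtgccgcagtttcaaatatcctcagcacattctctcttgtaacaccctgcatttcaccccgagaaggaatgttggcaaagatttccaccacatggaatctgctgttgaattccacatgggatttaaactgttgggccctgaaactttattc
Col5a1: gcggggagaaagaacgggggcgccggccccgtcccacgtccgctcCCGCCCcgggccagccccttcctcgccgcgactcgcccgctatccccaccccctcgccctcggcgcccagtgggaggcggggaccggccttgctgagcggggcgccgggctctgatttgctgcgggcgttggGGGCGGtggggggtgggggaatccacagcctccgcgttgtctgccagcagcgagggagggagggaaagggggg
Col6a1: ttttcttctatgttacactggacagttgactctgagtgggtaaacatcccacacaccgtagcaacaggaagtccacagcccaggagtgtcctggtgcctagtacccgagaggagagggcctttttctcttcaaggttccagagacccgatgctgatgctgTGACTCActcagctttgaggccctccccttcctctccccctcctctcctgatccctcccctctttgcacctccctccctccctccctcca
Sparc: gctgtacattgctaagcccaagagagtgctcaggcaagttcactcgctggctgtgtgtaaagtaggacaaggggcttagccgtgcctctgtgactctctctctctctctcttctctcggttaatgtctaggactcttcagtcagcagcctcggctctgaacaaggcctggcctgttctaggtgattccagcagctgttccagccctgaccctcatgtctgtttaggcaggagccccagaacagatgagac

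The 4 regions differed in composition. G and C made up 42.0% of the bases before Ogn, 76.4% before Col5a1, 56.0% before Col6a1 and 54.0% before Sparc, where the median of all 32851 promoter entries was 52.4%. The Ogn region held 2 overlapping TATA box matches, on opposite strands, from position -229 to -222 relative to the start. In the Col5a1 region there were 2 GC boxes, and in the Col6a1 region there was 1 AP-1 match, from position -90 to -84. No searched motif was found in the Sparc window. Over all promoter entries, 12.4% held the TATA box, 32.7% the GC box, 33.8% the CCAAT box and 6.75% the AP-1 site. The 48 entries for 45 member genes had 16.7%, 56.2%, 31.2% and 2.08%. The 3 lower genes shown had no searched motif in common in these windows. Dcn, also lower with S100a8, had no entry among these promoters and was not searched.

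The arrays were close in level, with median signals of 78.6 for S100a8, 73.6 for S100a9 and 76.1 for control. Signals were on the deposited linear scale, and values under a floor, the 50th percentile of all values (76.0), were set to it before log2 was taken. The probe set with the highest mean log2 signal stood for its gene, and a gene was compared where this mean exceeded the floor. Of the 57 member genes 31 were compared, 22 of them collagens, as were 11138 genes in all. The dimmest members compared were Col11a2 (mean signal 79.5), Col27a1 (83.3) and Col6a3 (84.9), and the nearest outside were Prelp (75.0), Col22a1 (71.7) and Col13a1 (71.4). The S100a8 array had raised dim signals: with compared genes split into 4 equal bins of brightness, in bin 1, the dimmest, the median log2 ratio to control was 0.14 with S100a8 and 0.00 with S100a9.

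The labelled cell type was set against marker genes. Of 12 colon epithelial markers, 5 were above the floor on each array, Krt18 and Krt20 (keratins), Epcam, Cdx2 and Cldn3, while Krt8, Krt19, Cdh1, Cdx1, Vil1, Lgals4 and Cldn7 were at or under it. Of 14 fibroblast or mesenchymal markers, 9 were above the floor on every array, among them Vim, Twist1, Twist2, Prrx1, Pdgfra and Pdgfrb, and Acta2, Tagln, Thy1, Fap and Tcf21 were not. On the S100a8, S100a9 and control arrays Epcam read 113, 85 and 101 and Cdx2 read 122, 109 and 101, close to the floor. Cldn3 read 188, 108 and 134, and Krt18 read 1032, 1236 and 1447. Of the mesenchymal markers, Vim read 15811, 15407 and 16032.5, and Pdgfra 150, 214 and 241. The floor is not a detection call. The label of a colon carcinoma line was thus matched by a minority of the epithelial markers, some of them dim, and most of the mesenchymal markers were above the floor.

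Of the 31 compared members, 26 were within 1.5-fold of control with both proteins, and 26 further members had no ratio because they were too dim to compare. A small group was lower: the fibrillar collagen gene Col5a1, the beaded filament collagen gene Col6a1 and the proteoglycan genes Ogn and Dcn, the 2 of 7 proteoglycan genes that could be compared. With S100a8, 4 of 31 compared members were at least 1.5-fold lower than control, where 1.91% of all compared genes were, and 1 of 31 (Col9a1) was at least 1.5-fold higher, against 1.13%. With S100a9, 3 of 31 were at least 1.5-fold lower, against 0.853%, and 0 of 31 at least 1.5-fold higher, against 0.251%. Ogn, Col5a1 and Col6a1 passed this size with both proteins, while Dcn did so with S100a8. Both comparisons used the same control array. The median log2 ratio of the members was -0.06 with S100a8 and -0.06 with S100a9, beside 0.01 and 0.00 over all compared genes. By direction alone, 17 of 31 members were below control with S100a8 and 21 with S100a9, where 47.5% and 48.1% of all compared genes were. At a size of 2-fold, Ogn was the 1 member lower with each protein (0.287% and 0.144% of all genes), and 0 members were higher (0.0449% and 0.00898%) or differed between the proteins (0.018% lower and 0% higher).

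**Figure D1:**
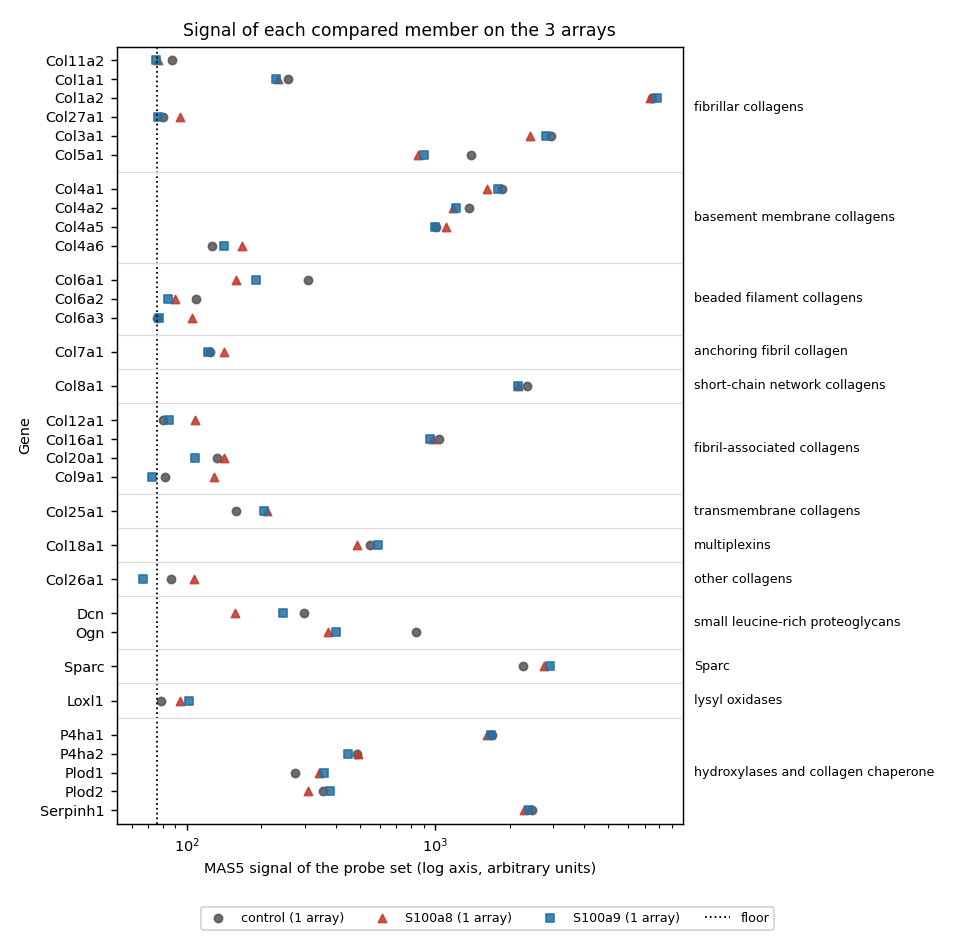
Signals of the 31 compared members on the control (circles), S100a8 (triangles) and S100a9 (squares) arrays, on a log axis in arbitrary units, grouped by class; the dotted line is the floor of 76.0. For Ogn and Col5a1 both treated arrays lie close together and left of the control, and for Dcn the S100a9 array (243) lies between S100a8 (157) and control (296).

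Among the small leucine-rich proteoglycans, 2 of 7 were compared and both were lower. Ogn encodes osteoglycin, which binds fibrils. Its signals read 372 (S100a8), 401 (S100a9) and 835 (control). Both treated arrays were thus far below control and close to each other. The log2 ratio was -1.17 with S100a8 (2.24-fold lower) and -1.06 with S100a9 (2.08-fold lower), the 20th and the 12th lowest of the 11138 genes. Among genes of like brightness (bin 3) the 5th percentile was -0.42 with S100a8 and -0.33 with S100a9. The second Ogn probe set gave 303, 431 and 848 in the same order, with ratios of -1.48 and -0.98. Both probe sets put the treated arrays below control, and they differ on the gap between the proteins.

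Dcn encodes decorin, which binds fibrillar collagen and also growth factors such as TGF-beta. The signals of its 1 probe set above the floor read 157 (S100a8), 243 (S100a9) and 296 (control). The S100a8 array was lowest and the S100a9 array lay nearer to control. The log2 ratios were -0.92 (1.89-fold lower) and -0.28 (1.21-fold lower), where the 5th percentiles of brightness bin 2 were -0.48 and -0.36. The S100a8 value was outside that range of single genes, and the S100a9 value inside it. The other Dcn probe set was under the floor on every array. Bgn, Lum, Fmod, Aspn and Prelp were not compared. Bgn, which encodes biglycan, was above the floor on the control array alone (57.9, 66.8 and 81.6 in the order S100a8, S100a9, control, which is kept from here on), and Prelp crossed it narrowly with S100a8 (81.2) and control (76.0).

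Fibrillar collagens, with 6 of 11 compared, had median log2 ratios of -0.16 with S100a8 and -0.12 with S100a9, and 5 of 6 were below control in each comparison, where 47.5% (S100a8) and 48.1% (S100a9) of all compared genes were. Col5a1 encodes a type V chain, which is built into type I fibrils and helps set their diameter. Its signals read 856, 900.3 and 1393. The treated arrays were alike and both lay under the control. The ratios were -0.70 (1.63-fold lower) and -0.63 (1.55-fold lower), the 115th and 69th lowest of all compared genes, against 5th percentiles of -0.42 and -0.33 at this brightness. After median centring of each array the S100a9 ratio was -0.58, just short of 1.5-fold. A second Col5a1 probe set gave 181, 193 and 294, with ratios of -0.70 and -0.61, and a dim further one gave 94.8, 100.1 and 108, with ratios of -0.19 and -0.12. The partner chain genes Col5a2 and Col5a3 lay under the floor on each array.

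The type I and type III genes, which make the most common fibrils, stayed closer to control. Col1a1 had signals of 234, 229 and 257, with log2 ratios to control of -0.13 for S100a8 and -0.17 for S100a9. Col3a1 had 2417, 2816 and 2941, with ratios of -0.28 and -0.06, so that the S100a8 array was the lowest. Col1a2, by its brightest probe set, had 7385, 7839 and 7467 and ratios of -0.02 and 0.07. Its probe sets disagreed: the next gave 2601, 2491 and 2144 (0.28 and 0.22), and the dimmest gave 89.9, 102 and 206 (-1.20 and -1.01). The dimmest Col1a2 probe set thus had ratios close to those of Ogn while the other 2 were near or above control. The annotation used here does not tell which transcript region each covers. Col11a2, of cartilage fibrils, was at the edge of the floor (76.5, 75.1 and 87.5), and Col27a1 had 93.9, 76.7 and 80.4, with ratios of 0.22 and -0.07.

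Beaded filament collagens, 3 of 5 compared, did not share a direction. Col6a1, a chain of type VI collagen, read 158, 189.5 and 309. Both treated arrays were well below control. The ratios were -0.97 (1.96-fold lower) and -0.71 (1.63-fold lower), the 38th and 49th lowest of the 11138 genes, with 5th percentiles of -0.48 and -0.36 at this brightness. It has a single probe set, so no second reading was at hand. Col6a2, which encodes another chain of the same trimer, had 89.4, 83.9 and 109, with ratios of -0.28 and -0.37. Col6a3, the longest chain, had 105, 77.0 and 75.6, which gives ratios of at least 0.47 with S100a8 and at least 0.02 with S100a9, since the control was under the floor. The 3 chains thus gave 3 different readings with S100a8, with Col6a2 and Col6a3 both dim. Both lay in brightness bin 1, where the S100a8 array was raised as a whole. With S100a8 Col6a3 was inside the 95th percentile of that bin (0.53) and Col6a2 inside the 5th (-0.40). With S100a9 the Col6a2 ratio of -0.37 was outside the 5th percentile of the bin (-0.34).

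**Figure D2:**
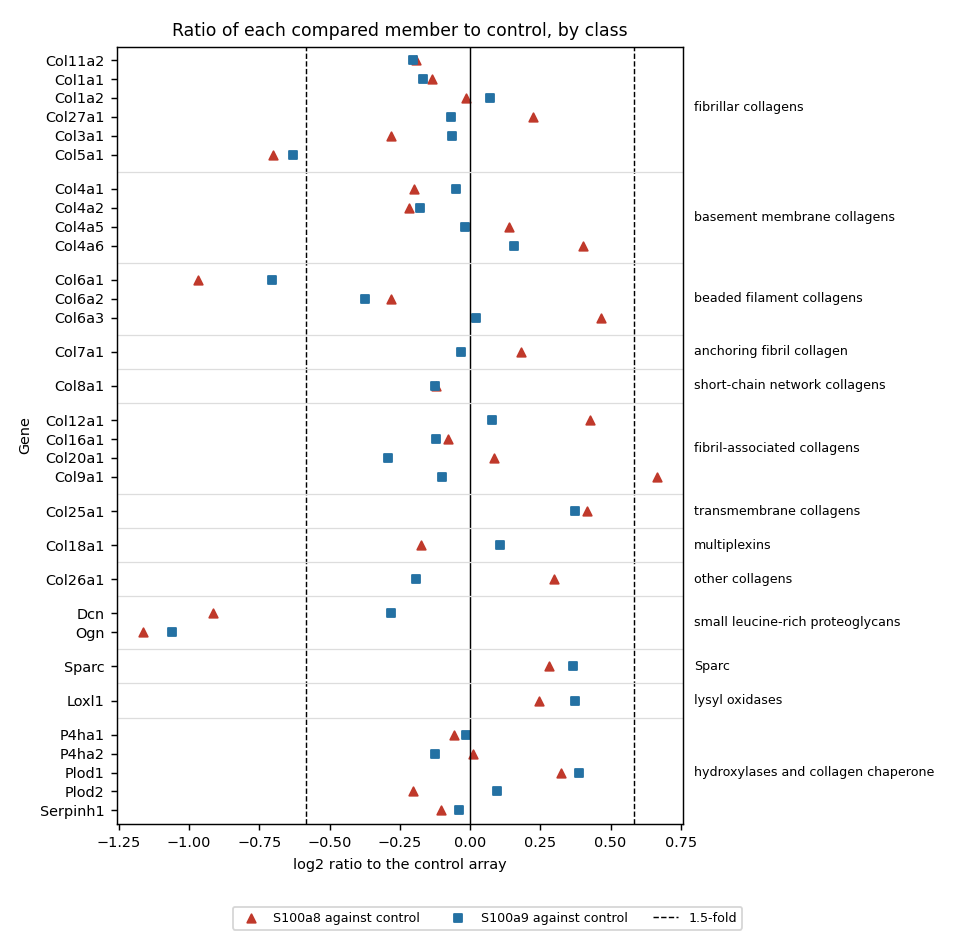
Log2 ratio of each of the 31 compared members to the control array with S100a8 (triangles) and S100a9 (squares), by class; dashed lines mark 1.5-fold. Ogn (-1.17 and -1.06), Col6a1 (-0.97 and -0.71) and Col5a1 (-0.70 and -0.63) lie left of the lower line with both proteins, Dcn with S100a8 (-0.92), and Col9a1 lies right of the upper line with S100a8 (0.66).

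Basement membrane collagens, 4 of 6 compared, had medians of -0.03 with each protein and none of them was 1.5-fold from control. Col4a1 and Col4a2, the 2 chains of the common type IV trimer, are neighbours in the genome. Col4a1 had 1619, 1798 and 1859 (log2 ratios of -0.20 and -0.05), and Col4a2 had 1181, 1213 and 1374 (-0.22 and -0.18). By these probe sets the control array was highest in both genes, by a margin inside the 5th percentile of bright genes (-0.31 and -0.25). The second Col4a1 probe set gave 791, 930.5 and 916 (-0.21 and 0.02), so that its S100a9 reading was not below control. Col4a5 had 1111, 999 and 1010 (0.14 and -0.02), and its neighbour Col4a6 had 167, 141 and 127 (0.40 and 0.16). Col4a3 and Col4a4 were not compared.

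Of the fibril-associated collagens, which sit on the surface of fibrils, 4 of 9 were compared, with medians of 0.26 with S100a8 and -0.11 with S100a9. Col16a1 was the brightest reading of this class at 984, 955 and 1039, with ratios of -0.08 and -0.12. The other 3 lay in brightness bin 1, where the S100a8 array was raised as a whole. Col9a1, a chain of the type IX collagen of cartilage, had 129, 72.2 and 81.4. Its ratio of 0.66 with S100a8 was above the 95th percentile of that bin (0.53), and its S100a9 signal was under the floor. The other Col9a1 probe set was under the floor on all arrays. Centring by brightness brought the S100a8 ratio to 0.47, inside 1.5-fold. Col12a1 had 108, 84.9 and 80.4 (0.43 and 0.08) and Col20a1 had 141, 108 and 133 (0.09 and -0.29).

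The remaining collagens were single compared members of their classes. Col8a1, of short-chain networks, had 2170, 2166 and 2361 (-0.12 and -0.12). Col18a1, the source of endostatin, had 485, 589 and 548 (-0.17 and 0.11). Col7a1, of the anchoring fibrils below epithelia, had 141, 122 and 125 (0.18 and -0.03). Col25a1, a membrane-spanning collagen, was higher on both treated arrays, with 211 and 205 against 158 (0.42 and 0.37), both above the 95th percentiles at this brightness (0.40 and 0.32). Its mean signal lay close to the dim edge of brightness bin 2 (182). In the adjoining bin 1 the 95th percentiles were 0.53 with S100a8 and 0.31 with S100a9, so the S100a8 value was outside only by its bin. The other Col25a1 probe set was under the floor on every array. Col26a1 had 107, 66.4 and 86.8, with a ratio of 0.30 with S100a8 and the S100a9 signal under the floor. None of these 5 reached 1.5-fold in either comparison with control.

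Sparc, which encodes the collagen-binding glycoprotein osteonectin, was higher on both treated arrays. Its brightest probe set gave 2753, 2920.5 and 2266. The ratios of 0.28 (1.22-fold higher) and 0.37 (1.29-fold higher) lay above the 95th percentiles of bright genes (0.23 and 0.21). A second probe set gave 923, 909 and 702, with ratios of 0.39 and 0.37, and the other, near the floor, gave 90.7, 83.4 and 85.4 (0.09 and -0.03). The 2 brighter probe sets thus had the treated arrays above control, by less than 1.5-fold.

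Of the lysyl oxidase genes Loxl1 was compared, with dim signals of 93.8, 103 and 79.1 (0.25 and 0.37), and Lox was under the floor on each array. In brightness bin 1, where Loxl1 lay, the 95th percentiles were 0.53 and 0.31. Its S100a9 value was thus outside this range and its S100a8 value inside it. The other Loxl1 probe set was under the floor on every array. All 5 genes of hydroxylases and the chaperone were compared, with medians of -0.06 and -0.01, and none was 1.5-fold from control. Plod1, a lysyl hydroxylase, had 342, 358 and 273. Both treated arrays were above control, with ratios of 0.32 (1.25-fold) and 0.39 (1.31-fold), against 95th percentiles of 0.40 and 0.32 at this brightness, so that the S100a9 value lay outside this range and the S100a8 value inside it. Plod2, which hydroxylates the telopeptides used in cross-links, had 308, 379 and 354 (-0.20 and 0.10). The prolyl hydroxylase genes P4ha1 (1627, 1678 and 1694; -0.06 and -0.01) and P4ha2 (489, 445 and 486; 0.01 and -0.13) stayed near control. Serpinh1 had 2292, 2395 and 2460 (-0.10 and -0.04), and its second probe set gave ratios of -0.09 and -0.07.

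**Figure D3:**
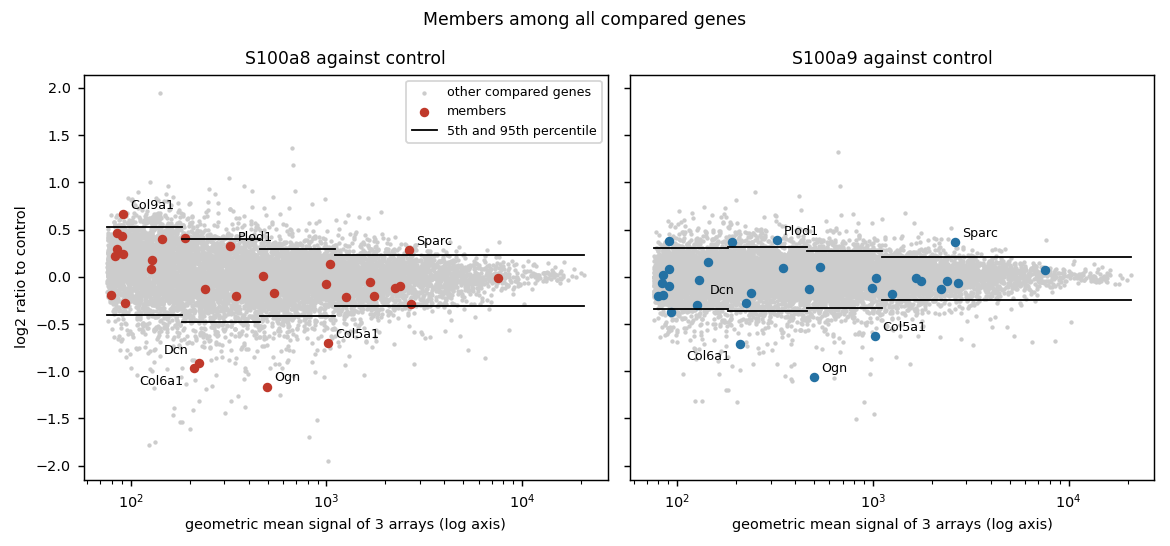
Log2 ratio to control against geometric mean signal (log axis) for all 11138 compared genes (grey) and the 31 members (coloured), with S100a8 at left and S100a9 at right; black lines are the 5th and 95th percentiles in each of the 4 bins of brightness. Ogn, Col5a1 and Col6a1 lie below the lower line in both panels and Sparc and Col25a1 above the upper line in both, while most members lie between the lines.

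The 26 members that were not compared had signals from 11.5 to 93.3, with a median of 42.0. They were Col2a1, Col5a2, Col5a3, Col11a1 and Col24a1 (fibrillar), Col4a3 and Col4a4 (basement membrane), Col6a4 and Col6a5 (beaded filament), Col8a2 and Col10a1 (short-chain network), Col9a2, Col9a3, Col14a1, Col19a1 and Col22a1 (fibril-associated), Col13a1, Col17a1 and Col23a1 (transmembrane), Col15a1 (multiplexin), Bgn, Lum, Fmod, Aspn and Prelp (proteoglycans), and Lox. Of these, 20 were under the floor on every array and 6 were above it on at least 1. Over all 117 member probe sets, 44 were above the floor on 3 arrays and 62 on none. No fold is given for these genes.

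Between the proteins, 2 members differed by at least 1.5-fold. Dcn was 1.55-fold higher with S100a9 than with S100a8 (log2 ratio 0.63), 1 of 31 members, where 0.0988% of all compared genes were at least 1.5-fold higher, and 4 of the 11138 genes had a higher ratio. Col9a1 was lower by at least 1.70-fold with S100a9 (-0.76), against 1.01% of all genes, and is the dim gene described above. For Col5a1 the proteins were closer, with a ratio of 0.07, and for Col6a1 it was 0.26. The Ogn ratio was 0.11 by the brighter probe set and 0.51 by the second, so that the gap between the proteins is not settled for Ogn. The median over the members was -0.003, beside 0.02 over all genes.

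Probe sets of the same gene gave a reading of how far a ratio can be trusted. In 13 member genes at least 2 probe sets were above the floor on all arrays. Their ratios to control had the same sign in 9 of 13 genes with S100a8 and in 4 of 13 with S100a9. How often this held over all genes with several probe sets was not counted, so these counts are not particular to the members. The genes whose probe sets differed in sign were Col1a2, Col4a5, Col20a1 and P4ha1 with S100a8, and Col1a2, Col3a1, Col4a1, Col4a5, Col8a1, Col18a1, P4ha1, Plod2 and Sparc with S100a9. Some of these differences with S100a9 were between ratios near 0, as in Col3a1 (-0.06 and 0.01) and Col4a1 (-0.05 and 0.02). Others were wide, as in Col1a2 (-1.01 to 0.22). The median range between probe sets of a gene was 0.16 and 0.15 on the log2 scale, and the largest, for Col1a2, was 1.48 and 1.23. Ogn and Col5a1 were below control by all of their 2 and 3 probe sets with both proteins. Dcn and Col6a1 rest on 1 probe set each.

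**Figure D4:**
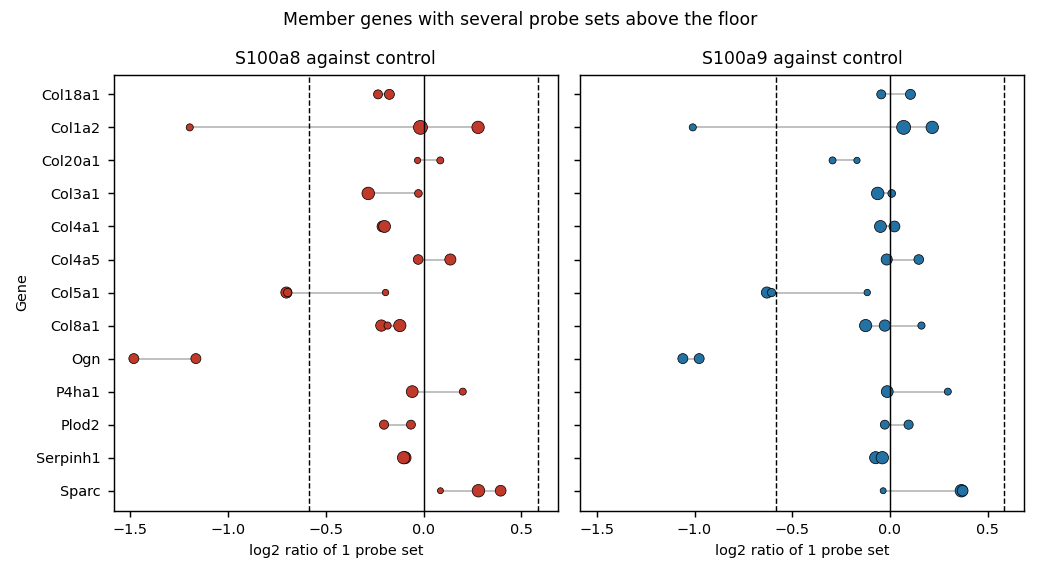
Log2 ratio to control of single probe sets of the 13 member genes with more than 1 probe set above the floor on all arrays, with S100a8 at left and S100a9 at right; larger circles are brighter probe sets, grey lines join those of a gene and dashed lines mark 1.5-fold. Both Ogn probe sets lie left of the lower dashed line in each panel, while Col1a2 spreads from -1.20 to 0.28 with S100a8.

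Genome neighbours did not share 1 pattern. Ogn stands next to Omd, which encodes the related proteoglycan osteomodulin, in a cluster with Aspn and Ecm2. Omd, taken from a list of other small leucine-rich genes, had 226, 294 and 324, with ratios of -0.52 and -0.14, and Aspn and Ecm2 lay under the floor on each array. Dcn stands next to Lum, which with Kera and Epyc of the same cluster was under the floor. Col6a1 stands next to Col6a2, whose dim signals were also lowest on the treated arrays, and Col3a1 next to Col5a2, which was under the floor.

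Other genes of collagen biology were read from lists and mostly lay near control, as did most of all compared genes. Of 14 compared modifying and folding genes, 0 were 1.5-fold from control with either protein (medians -0.05 and -0.06). Of all compared genes, 1.91% were at least 1.5-fold lower and 1.13% higher with S100a8, and 0.853% and 0.251% with S100a9. A count of 0 in so short a list is near these shares. Loxl3, a lysyl oxidase relative, had 499, 630 and 687 (-0.46 and -0.13), P3h3 had -0.21 and -0.06, P3h1 had 0.25 and -0.06, and P3h4 had 0.14 and 0.25. Of the procollagen processing genes 2 were compared, Bmp1, the C-proteinase, with 468, 573 and 645 (-0.46 and -0.17), and its enhancer Pcolce with 5840, 6078 and 5874 (-0.01 and 0.05). All 5 compared receptor and uptake genes were within 1.5-fold (medians -0.07 and -0.08), with Mrc2, which takes up collagen, at -0.41 and -0.16, Ddr1, a collagen receptor kinase, at -0.15 and -0.29, Itgb1 at -0.02 and 0.003 and Cd44 at -0.05 and -0.01. By direction, 5 of 5 were below control with S100a8 and 4 with S100a9, beside 47.5% and 48.1% of all compared genes.

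Among 6 compared collagen breakdown genes 1 was at least 1.5-fold lower with each protein, where 1.91% (S100a8) and 0.853% (S100a9) of all compared genes were. This was the collagenase gene Mmp13. Its signals read 69.3, under the floor, 105 and 261. The ratio was at most -1.78 with S100a8 and was -1.32 with S100a9. Mmp9 had dim signals of 156, 101 and 104 (0.58 and -0.05) and lay in brightness bin 1, where the S100a8 array was raised as a whole. Its S100a8 ratio was above the 95th percentile of that bin (0.53) and short of 1.5-fold. Mmp14 was at 0.09 and 0.17 and Ctsl at 0.02 and -0.06. Besides Omd, the other small leucine-rich genes compared were Nyx (0.26 and -0.06) and Podn (0.29 and -0.34), both dim.

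Of 10 compared basement membrane partners 8 were below control with S100a8 and 8 with S100a9 (medians -0.14 and -0.09), beside 47.5% and 48.1% of all compared genes, with 0 at 1.5-fold. Lamb2, a laminin chain, had 181, 196 and 268 (-0.57 and -0.46), Lama3 had -0.43 and -0.04, Nid1 -0.03 and -0.17 and Lamc1 0.14 and 0.21. Of 14 other matrix glycoprotein genes, 1 was at least 1.5-fold lower with S100a8, where 1.91% of all compared genes were. This was Tnxb, which encodes tenascin-X, a protein tied to collagen fibrils. It had 347, 445 and 542 (-0.64 and -0.28). Thbs1, thrombospondin 1, was at -0.52 and -0.10, Vtn at 0.30 and 0.12 and Mfap2 at 0.38 and -0.21. Vtn and Mfap2 lay in brightness bin 1, where the S100a8 array was raised as a whole. The list medians were -0.07 with each protein. Over the 7 lists of other matrix genes, Mmp13 and Tnxb were the 2 genes at least 1.5-fold lower with S100a8, and Mmp13 was the 1 such gene with S100a9. Of all compared genes, 1.91% were at least 1.5-fold lower with S100a8 and 0.853% with S100a9.

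**Figure D5:**
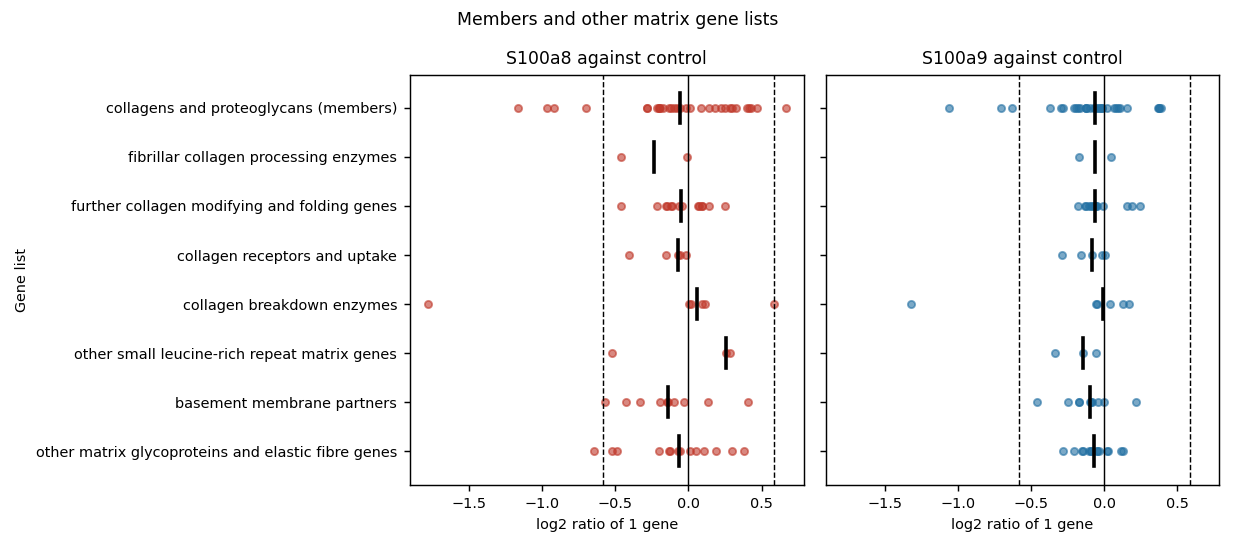
Log2 ratio to control of single genes (points) in the 31 members and 7 lists of other matrix genes, with S100a8 at left and S100a9 at right; thick bars are medians and dashed lines mark 1.5-fold. Medians run from -0.24 to 0.26 with S100a8, and the collagen breakdown list holds the lowest single value, that of Mmp13.

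Markers of cells that make these proteins in tissue were read on the same arrays. The summed signal of 14 fibroblast or mesenchymal markers was 38745, 38504 and 38972. Vim (15811, 15407 and 16032.5) and S100a4 (13698.5, 13378 and 13323) made up most of it, so the sum says little about the dimmer markers. Of the 9 compared, 7 were below control with S100a8 and 5 with S100a9, beside 47.5% and 48.1% of all compared genes, and the medians were -0.06 with each protein. Pdgfrb and Pdgfra, receptors for platelet-derived growth factors, were among the low ones: Pdgfrb had 426, 476 and 808 (-0.92 and -0.76) and Pdgfra had 150, 214 and 241 (-0.69 and -0.17). In both receptor genes the S100a8 array was lowest and the control highest, an order that the other compared fibroblast markers did not have. Ogn, Dcn, Col5a1 and Col6a1 had it, and so did members near control such as Col3a1, Col4a1 and Serpinh1. The epithelial marker Krt18 had it too (1032, 1236 and 1447). The share of all genes with this order was not counted. Pdpn, podoplanin, was higher on the treated arrays at 2199, 2276 and 1712 (0.36 and 0.41), and Twist1 was at -0.03 and 0.23. In bulk RNA, fewer cells of a type and less RNA per cell cannot be told apart, and the part of these markers in the Ogn, Dcn, Col5a1 and Col6a1 values was not tested.

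Markers of other cell types were also read. The 10 endothelial and pericyte markers summed to 714, 600.1 and 594.6, with 4 above the floor and Pecam1, Cdh5, Tek, Vwf, Mcam and Rgs5 at or under it. Of these 4, 4 were above control with S100a8 and 2 with S100a9 (medians 0.33 and -0.02), beside 52.5% and 51.2% of all compared genes. All 4 were dim and lay in brightness bin 1, where the S100a8 array was raised as a whole (median log2 ratio 0.14). Their S100a8 ratios, from 0.10 to 0.44, were inside the 95th percentile of that bin (0.53). The 12 colon epithelial markers summed to 2068, 2165 and 2394, with Krt18 (1447) the largest part at control. The 10 macrophage and granulocyte markers summed to 2330, 2557 and 2344. Signals of different probe sets are not on 1 scale of abundance, so these sums do not compare cell types. On each array 5 of the macrophage and granulocyte markers were above the floor (Cd68, Csf1r, Lyz2, Cd14 and Mpo), while Ptprc, the common leukocyte antigen, Adgre1, Itgam, Aif1 and Fcgr3 were at or under it. Of the 5, 4 were above control with each protein (medians 0.43 and 0.23), beside 52.5% and 51.2% of all compared genes. The S100a8 median was the ratio of Mpo. Mpo and Lyz2 were dim and lay in brightness bin 1, and their S100a8 ratios (0.43 and 0.20) were inside its 95th percentile. With S100a9 the Lyz2 ratio (0.45) was above the 95th percentile of that bin (0.31).

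The brightest of these markers, Cd14, a co-receptor for bacterial lipopolysaccharide, had 1075, 1418 and 1413 (-0.39 and 0.01) and made up most of the sum at control. Cd68, a lysosomal glycoprotein of macrophages, had 422, 396 and 273 (0.63 and 0.53) and was thus more than 1.5-fold higher with S100a8. It was 1 of the 5 compared markers, where 1.13% of all compared genes were at least 1.5-fold higher. Csf1r, the receptor for macrophage colony-stimulating factor, had 370, 313 and 267 (0.47 and 0.23). Both had the control array lowest, the reverse of Ogn, Dcn, Col5a1 and Col6a1, and their part in the values of those genes was not tested.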

How the data were processed

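Signals were the intensity values deposited in the series' value table, on a linear scale, which MAS5 had summarised per probe set, per the submitters' processing notes. Its version and scaling target were not given in the sources used here. Because MAS5 takes off mismatch signal, dim values are noisy, and a common scale hides changes in total RNA. Columns were matched to samples by name. The number of arrays limits the precision.

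Genes were named from the supplied platform annotation, which can be old: 34945 probe sets had 1 symbol, 932 several, and 9160 were not listed. All 57 member symbols were matched by Entrez number to RefSeq (GRCm38.p6), which changed 0. The 64 control probe sets were left out. Floor, choice of probe set and filter are given with the results. Ratios were log2 differences of floored signals, computed with Python 3.11.15, numpy and pandas. A fold of 1.5 served as a descriptive size, and a ratio against an array at the floor is a bound. The calculation was tested on simulated data.

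The members and lists were chosen with earlier results of these data known. All compared members were named. From each other list, the 2 highest and 2 lowest ratios to control, above the floor on both arrays, were named, and any others were named after their values were seen. Settings tried besides were a fold of 2, arrays centred on their medians, quantile normalization, the floor at percentile 30 or 65, log2(value + 1) with no floor, dim genes kept, probe sets averaged within a gene, and preference for probe sets without shared endings (_x_at, _s_at, _a_at). Centring by brightness in 20 bins was added after seeing the data.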

Additional observations from a re-analysis of the deposited data

How the results depend on the processing

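The counts of members at least 1.5-fold lower than control (4 with S100a8, 3 with S100a9) stayed within 1.5 times of these values under each alternative run except 2. With a fold of 2 they were 1 and 1, and with probe sets averaged within a gene the S100a8 count was 2, among 22 members compared. The count higher with S100a8 (1, Col9a1) was 4 with the floor at percentile 30 (46 members compared), and 0 with the floor at percentile 65 (20 compared), with averaged probe sets, with probe sets without shared endings first, with a fold of 2 and with centring by brightness. For S100a9 against S100a8, the count lower (1) was 2 with the floor at percentile 30 and with log2(value + 1), and 0 with the floor at percentile 65, with averaged probe sets, with probe sets without shared endings first, with a fold of 2 and with centring by brightness. The count higher (1, Dcn) was 0 with averaged probe sets, where Dcn was no longer compared, and with a fold of 2. The median of the members ranged from -0.14 to 0.02 with S100a8 and from -0.07 to 0.00 with S100a9. Ogn ranged from -1.32 to -1.13 and from -1.07 to -1.01, Col6a1 from -1.01 to -0.95 and from -0.72 to -0.66, and Col5a1 from -0.75 to -0.53 and from -0.64 to -0.45, below 1.5-fold with both proteins when its probe sets were averaged. The cause of these moves was not tested. No paired analysis was possible because each group held 1 array.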
